A study of Homo sapiens with 6 samples.

Results

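The genes described are 10 members of the insulin-like growth factor (IGF) system in ACHN cells: the IGF-binding protein genes IGFBP2, IGFBP3, IGFBP4, IGFBP6 and IGFBP7, the receptor genes IGF1R, IGF2R and INSR, and the receptor substrate genes IRS1 and IRS2. They were chosen by name with their values between the OTUD1 siRNA and control groups already known, so those values are given as a description and no test on the members is offered as support. All 10 were found in the table of 58735 rows, and all 10 were among the 15244 genes with enough counts to be tested. ACHN is an established human renal cancer cell line. It was transfected either with a small interfering RNA (siRNA) directed at OTUD1, a deubiquitinase gene, or with a control siRNA, and each group held 3 libraries. Both groups were thus transfected, and no untransfected cells were compared. The labels name 1 OTUD1 siRNA (si01). They give no time after transfection and do not state that replicates were separate cultures. Each standard deviation (SD) below measures the spread between these libraries, which may be technical. Each standard error comes from a fit to these same libraries that also draws on the spread of other genes.

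In the IGF system, IGF1 and IGF2 are secreted ligands that bind the receptor tyrosine kinase IGF1R, while insulin acts mainly through INSR. The binding proteins hold the ligands outside the cell, prolonging their life and limiting or modulating their access to the receptor. IGF2R, which is also the cation-independent mannose 6-phosphate receptor, takes up IGF2 for degradation and carries newly made hydrolases to the lysosome. IRS1 and IRS2 are docking proteins that link the active receptors to PI3K and AKT.

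Levels are given as CPM, the library's counts for a gene relative to its total after scaling by the trimmed mean of M-values (TMM). A positive log2 fold change means a higher level after OTUD1 siRNA, and its standard error (SE) comes from the edgeR fit. Total counts ranged from 16753495 to 21013530 per library. OTUD1 itself was at 3.82, 3.69 and 3.8 CPM in control replicates 1 to 3 and at 1.28, 0.844 and 1.39 CPM in the OTUD1 siRNA libraries, without overlap. The log2 fold change was -1.69 (SE 0.24), with an adjusted p of 4.37e-07 by edgeR. The renal epithelial markers PAX8, KRT8, KRT18, KRT19 and EPCAM were all present, with a summed level of 6601.7 to 6850.7 CPM in control and 3548.5 to 3673.4 CPM in OTUD1 siRNA libraries. Of these 5, PAX8, KRT8 and KRT18 passed the test as lower and KRT19 and EPCAM as higher; their part in the results below was not tested. Of 4 leukocyte markers, PTPRC, CD3E and MS4A1 had no count in any library, and CD14 was at 1.27 to 1.58 CPM in control and 0.596 to 1.28 CPM in OTUD1 siRNA libraries. Summed endothelial markers stayed at 0.188 to 0.934 CPM and summed fibroblast markers at 3.03 to 5.93 CPM over the 6 libraries.

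The system moved in both directions. IGFBP3 was 9.3-fold higher after OTUD1 siRNA, and IGFBP4, IGFBP6, IGF2R and IGF1R were 1.78-, 1.31-, 1.22- and 1.13-fold higher. IGFBP2, INSR, IRS2 and IGFBP7 were 1.64-, 1.58-, 1.31- and 1.24-fold lower. By the criterion used across the transcriptome (edgeR quasi-likelihood test, adjusted p under 0.05), 5 of the 10 counted as higher, against 29.3% of all tested genes, and 4 as lower, against 31.1%. The 3 libraries of one group lay wholly above or below those of the other for 9 of the 10, against 64.5% of all tested genes. The exception was IGF1R. The median log2 fold change was 0.2 over the 10 genes and 0.01 over all tested genes. Because the genes were picked with this comparison known, nothing is read from these shares.

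**Figure D1:**
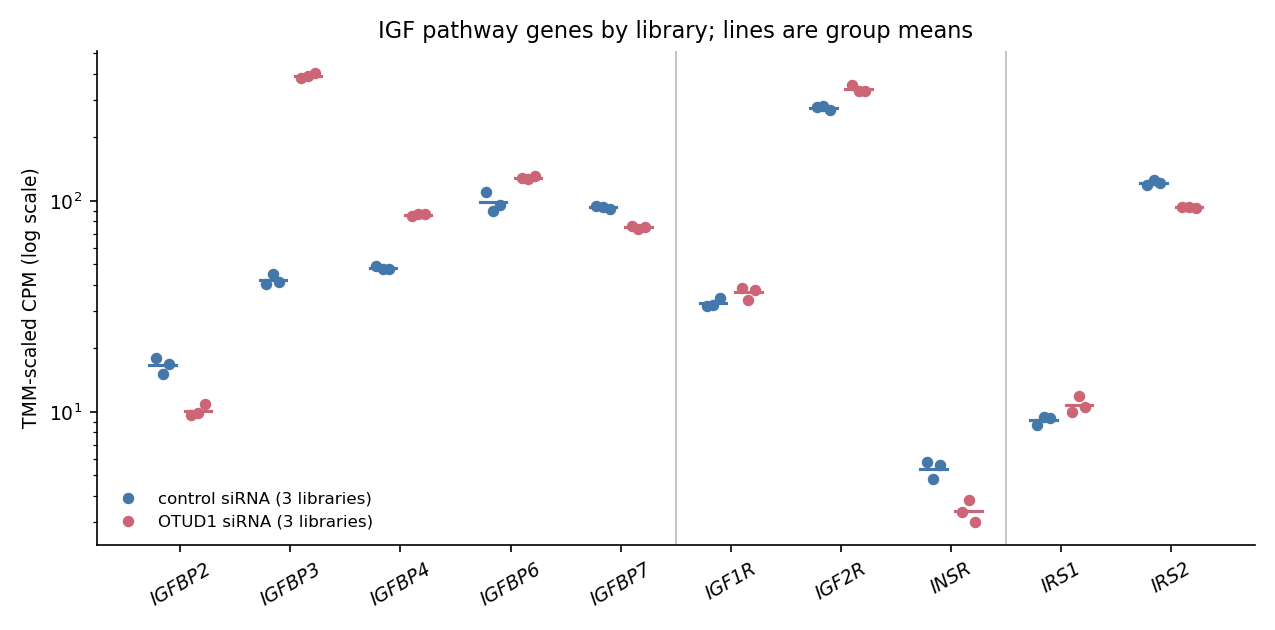
TMM-scaled CPM (log axis) of the 10 genes in each library, as points, with the group mean as a line; binding proteins, receptors and substrates are separated by grey lines. IGFBP3 moves from 40.2 to 45 CPM in control libraries to 382 to 403 CPM, while the other 9 genes shift by less than 2-fold in either direction.

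IGFBP3 encodes the main carrier of IGFs in blood, made by many cell types and also able to act on cells without binding a ligand. The gene (ENSG00000146674.14; hg38 chromosome 7, 45912245 to 45921874, minus strand) has 5 exons in its principal GENCODE 29 transcript. Control replicates 1 to 3 held 642, 817 and 706 counts, or 40.2, 45 and 41.2 CPM. The OTUD1 siRNA libraries held 8385, 7899 and 7256 counts, or 382, 392 and 403 CPM. The groups were separated by a wide gap, at 42.1 ± 2.53 against 392 ± 10.4 CPM (SD, n = 3 each), and the log2 fold change was 3.22 (SE 0.043). Only 7 of the 15244 tested genes had a larger positive log2 fold change. In the control group the IGFBP3 mean CPM exceeded that of 66.4% of tested genes, and in the OTUD1 siRNA group that of 97.8%. These shares take no account of gene length.

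The stretch of the IGFBP3 promoter around its annotated start is shown with that of IGFBP4, the member with the next largest increase, because they are the only 2 of the 9 members with a RefSeq promoter entry that carry a TATA-like motif. Both sequences (RefSeq, GRCh38.p14) run 5′ to 3′ on the gene's strand to shortly after the start, with the motif in capitals.
IGFBP3, chr7:45921252-45921322, minus strand: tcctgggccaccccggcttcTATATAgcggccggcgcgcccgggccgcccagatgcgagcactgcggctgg
IGFBP4, chr17:40443401-40443470, plus strand: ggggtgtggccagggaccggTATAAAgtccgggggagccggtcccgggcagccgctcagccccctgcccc

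The motif begins 30 bases before the start in IGFBP3 and 29 bases before it in IGFBP4. The search took TATAAA or TATATA on either strand of the 300 bases from 250 before to 50 after each start. Of all 35116 such promoters, 13.7% hold one of these letters anywhere, and 3.62% hold one that begins 40 to 20 bases before the start. A match describes the letters and does not show a site in use. IGFBP7 has no entry in the promoter table.

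IGFBP4 encodes a binding protein known mainly as an inhibitor of IGF action, which the protease PAPPA cleaves. It was at 49.4, 47.7 and 47.5 CPM in control replicates 1 to 3 and at 84.8, 86.5 and 86.7 CPM in the OTUD1 siRNA libraries. Replicates lay close together in both groups, with coefficients of variation of 2.14% and 1.17%, and the log2 fold change was 0.84 (SE 0.048). The gene lies on chromosome 17, 40443461 to 40457731, plus strand.

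IGFBP6, on chromosome 12 (53097436 to 53102345, plus strand), encodes a binding protein with a marked preference for IGF2. Its control libraries were at 110, 89.3 and 95.7 CPM and its OTUD1 siRNA libraries at 128, 127 and 131 CPM. Control replicate 1 stood above the other two, and the coefficient of variation was 10.6% in the control group against 1.43% in the OTUD1 siRNA group. The groups did not overlap, and the log2 fold change was 0.39 (SE 0.051). The IGFBP6 promoter is the only one of those searched that holds GTAAACA, the core letters bound by FOXO transcription factors, which act downstream of insulin signalling; 3.42% of all promoters hold it on either strand. It is printed for that reason, with these letters in capitals, beginning 186 bases before the start.
IGFBP6, chr12:53097461-53097507, plus strand: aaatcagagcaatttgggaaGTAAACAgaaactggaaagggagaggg

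IGFBP2 and IGFBP7 were the binding protein genes at a lower level after OTUD1 siRNA. IGFBP2, a binding protein that is often abundant in tumours and fetal tissue, lies on chromosome 2 (216632828 to 216664436, plus strand). It was at 18, 15.1 and 16.9 CPM in control replicates 1 to 3 and at 9.66, 9.88 and 10.9 CPM after OTUD1 siRNA, with no overlap and a log2 fold change of -0.72 (SE 0.1).

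IGFBP7 encodes a related secreted protein with weak affinity for IGFs. Its control libraries were at 94.4, 93.3 and 91.6 CPM and its OTUD1 siRNA libraries at 76.1, 73.6 and 75.6 CPM, again without overlap (log2 fold change -0.31, SE 0.044). IGFBP7 (chromosome 4, 57030773 to 57110385, minus strand) shares 396 bases at its end with POLR2B on the other strand, which had 5975 counts in the control group and 6608 in the OTUD1 siRNA group, against 4772 and 4513 for IGFBP7. Which strand setting the counting used is unknown here, so the IGFBP7 counts are uncertain to that extent.

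The remaining genes of the binding protein family were almost silent. IGFBP1, which lies next to IGFBP3 on chromosome 7 (45888357 to 45893668, plus strand), had 1 count in the control group and 7 in the OTUD1 siRNA group. IGFBP5 had 4 and 2 counts, IGFALS, the third subunit of the circulating IGF complex, 4 and 2, and IGFBPL1 none. None of these 4 had enough counts to be tested, and 3 counts correspond to 0.137 to 0.188 CPM depending on the library.

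Per kilobase of annotated exon, which allows genes to be compared with each other, IGFBP6 was the most abundant of the 10 in control libraries, at 73 ± 7.76 CPM per kilobase (SD, n = 3). IGFBP7 followed at 48.2 ± 0.752, IGFBP4 at 21.9 ± 0.468, IGF2R at 15.5 ± 0.345 and IRS2 at 15 ± 0.359 CPM per kilobase. IGFBP3 was sixth at 9.22 ± 0.554, ahead of IGFBP2 at 3.49 ± 0.305, IGF1R at 2.35 ± 0.112, IRS1 at 0.922 ± 0.0412 and INSR at 0.515 ± 0.0497 CPM per kilobase. Only the neighbours IGF2R and IRS2 overlapped between libraries in that order.

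After OTUD1 siRNA, IGFBP6 was still first at 95.7 ± 1.37 CPM per kilobase and IGFBP3 was second at 85.9 ± 2.28. IGFBP4 (39.1 ± 0.458) and IGFBP7 (38.9 ± 0.674) overlapped and could not be ranked. IGF2R was at 19 ± 0.738, IRS2 at 11.5 ± 0.101 and IGF1R at 2.64 ± 0.192 CPM per kilobase. IGFBP2 came eighth at 2.13 ± 0.137, below IGF1R, with IRS1 at 1.09 ± 0.0943 and INSR at 0.325 ± 0.0394 CPM per kilobase. Both orders depend on the length used. With the longest coding transcript instead of the union of all exons, IGFBP3 in control libraries was at 17.5 CPM per kilobase, above IRS2 at 15, and IGFBP2 was at 11.6. With that length, OTUD1 siRNA libraries had IGFBP3 at 163, above IGFBP6 at 109, and IGFBP7 at 52.6, above IGFBP4 at 39.1. IGFBP2 was then at 7.05, above IGF1R at 3.01 CPM per kilobase.

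The 5 binding protein mRNAs together summed to 165, 149 and 153 CPM per kilobase in control replicates 1 to 3 and to 259, 260 and 266 in the OTUD1 siRNA libraries. IGFBP3 made up 5.31%, 6.59% and 5.91% of that sum in the control libraries and 32.3%, 33% and 33.1% after OTUD1 siRNA. Without IGFBP3, the other 4 summed to 147 ± 8.89 and 176 ± 2.08 CPM per kilobase. The share of IGFBP7 was 31% ± 1.4 in control and 14.9% ± 0.289 after OTUD1 siRNA, that of IGFBP6 46.8% ± 2.45 and 36.6% ± 0.208, and that of IGFBP2 2.24% ± 0.11 and 0.813% ± 0.0399. That of IGFBP4 was 14.1% ± 0.451 and 14.9% ± 0.153, the smallest shift of the 5; its groups overlapped when the longest coding transcript was the length. With that length, the IGFBP3 share was 8.78% in control and 43.9% after OTUD1 siRNA.

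**Figure D2:**
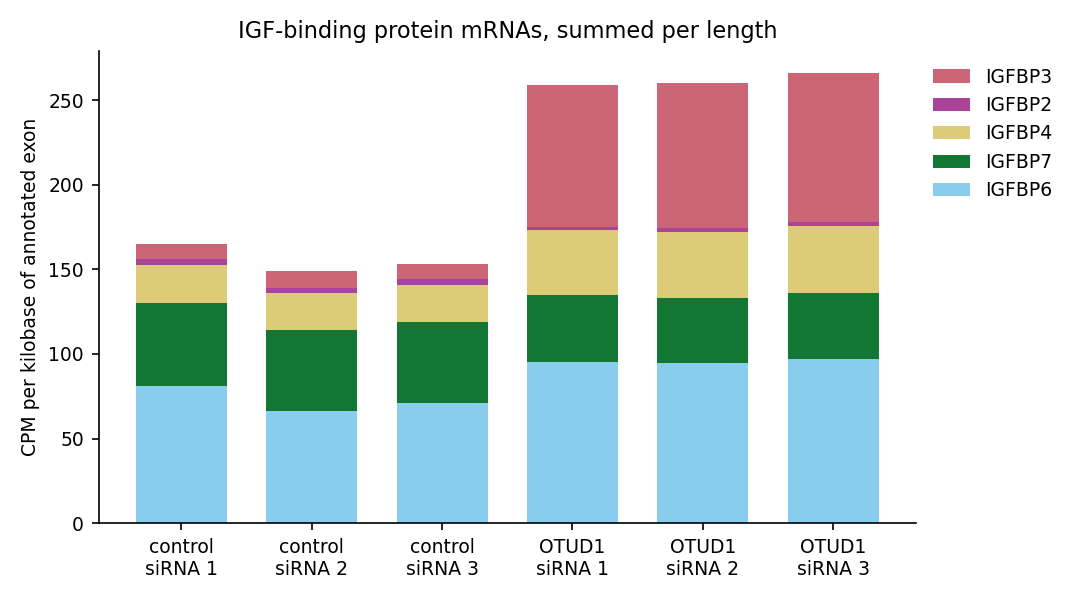
Stacked levels of the 5 binding protein mRNAs in each library, in CPM per kilobase of annotated exon. The sum is 149 to 165 in the 3 control libraries and 259 to 266 in the 3 OTUD1 siRNA libraries, and the IGFBP3 segment grows from 5.31% to 6.59% of the bar to 32.3% to 33.1%.

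Among the receptors, IGF2R had by far the most counts. It was at 279, 281 and 270 CPM in control replicates 1 to 3 and at 354, 331 and 331 CPM in the OTUD1 siRNA libraries. The groups did not overlap, and the log2 fold change was 0.29 (SE 0.034). The gene (chromosome 6, 159969099 to 160113507, plus strand) has 48 exons; a pseudogene on the same strand inside it, AL353625.1, had counts amounting to 0.819% of those of IGF2R, and its antisense gene AIRN had none. M6PR, the other mannose 6-phosphate receptor, rose as well, from 244 ± 4.16 to 283 ± 2.07 CPM (log2 fold change 0.21, edgeR adjusted p = 1.57e-06).

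The IGF2R promoter holds 3 copies of the E-box CACGTG, in capitals here, a sequence bound by basic helix-loop-helix factors that include TFEB, a regulator of lysosomal genes. They begin 132, 74 and 28 bases before the start. On either strand, 7.26% of all promoters hold at least 1 copy and 0.094% hold 3 or more. The cut-off of 3 equals the number found in IGF2R, so nothing is read from the smaller share. Of the other members, IRS1 holds 1.
IGF2R, chr6:159968930-159969079, plus strand: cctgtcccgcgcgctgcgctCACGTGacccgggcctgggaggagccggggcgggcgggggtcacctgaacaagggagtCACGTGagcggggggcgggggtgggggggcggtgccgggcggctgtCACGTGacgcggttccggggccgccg

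IGF1R, the signalling receptor for both IGFs, was at 31.6, 32 and 34.5 CPM in control replicates 1 to 3 and at 38.7, 33.8 and 38 CPM after OTUD1 siRNA. OTUD1 siRNA replicate 2 lay below control replicate 3, so the groups overlapped. The log2 fold change was 0.17 (SE 0.066). IGF1R counted as higher with all 6 libraries but not with DESeq2, nor when control replicate 1 or 2 or OTUD1 siRNA replicate 1 or 3 was left out. Its log2 fold change in those 5 settings was 0.18, 0.15, 0.16, 0.13 and 0.15.

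INSR, the insulin receptor, was the least abundant of the 10, with 92, 87 and 96 counts in control replicates 1 to 3 and 74, 77 and 54 counts in the OTUD1 siRNA libraries. This corresponds to 5.76, 4.79 and 5.61 CPM and to 3.37, 3.82 and 3 CPM. The groups did not overlap, and the log2 fold change was -0.66, with an SE of 0.16 that reflects the low counts. IGF1R and INSR chains can pair into hybrid receptors, so their ratio was taken within each library. Per kilobase, IGF1R exceeded INSR 4.11-, 5.01- and 4.62-fold in the control libraries and 8.6-, 6.62- and 9.5-fold in the OTUD1 siRNA libraries. All 3 ratios after OTUD1 siRNA lay above all 3 control ratios. They restate the values of both genes given above and add no separate evidence. The ratio of IGF2R to IGF1R overlapped between the groups, at 6.62 ± 0.442 and 7.2 ± 0.438.

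The substrate genes differed in direction. IRS2 was at 119, 125 and 121 CPM in control replicates 1 to 3 and at 93.9, 93.7 and 92.4 CPM in the OTUD1 siRNA libraries, a log2 fold change of -0.39 (SE 0.04) without overlap. IRS1 was at 8.7, 9.42 and 9.4 CPM in control and at 10, 11.9 and 10.6 CPM after OTUD1 siRNA. Its groups did not overlap either, but its log2 fold change of 0.24 had an SE of 0.11, and it was the 1 member that did not meet the criterion in either direction. It counted as higher with library totals (0.37), with a minimum mean of 5 CPM (0.29) and without OTUD1 siRNA replicate 1 (0.29). IRS2 exceeded IRS1 per kilobase 16.8-, 16.2- and 15.8-fold in control libraries and 11.5-, 9.66- and 10.6-fold after OTUD1 siRNA. These ratios could not overlap, because IRS2 was lower and IRS1 higher in every OTUD1 siRNA library than in every control library. IRS1 lies on chromosome 2 (226731317 to 226799759) and IRS2 on chromosome 13 (109752698 to 109786568), both on the minus strand.

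**Figure D3:**
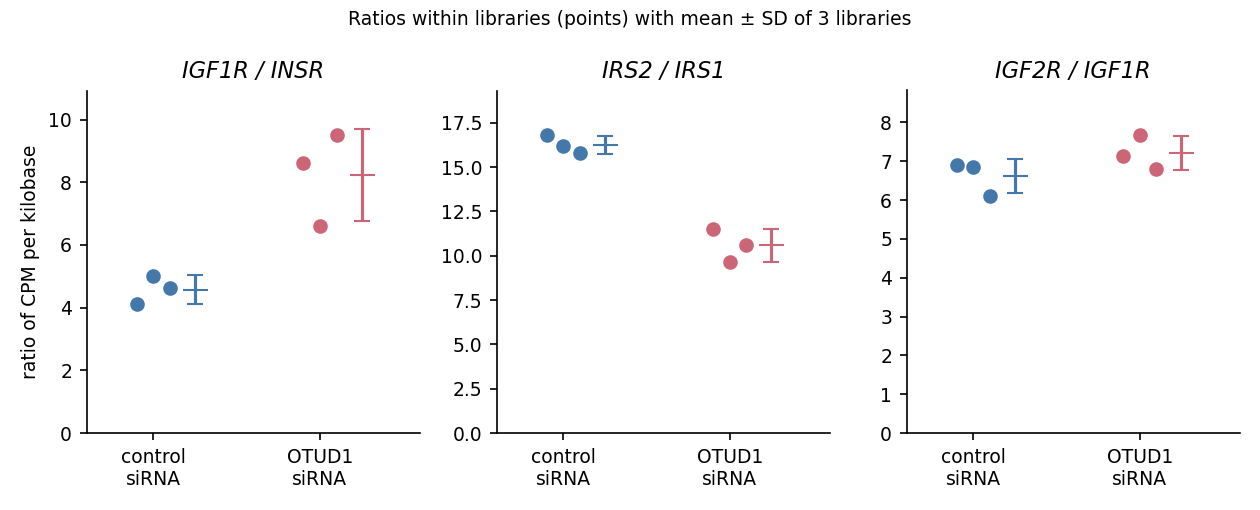
Ratios of levels per kilobase within each library (points), with mean ± SD of 3 libraries, on axes that start at 0. The ratio of IGF1R to INSR runs from 4.11 to 5.01 in control and from 6.62 to 9.5 in OTUD1 siRNA libraries; that of IRS2 to IRS1 runs from 15.8 to 16.8 and from 9.66 to 11.5; that of IGF2R to IGF1R overlaps.

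**Figure D4:**
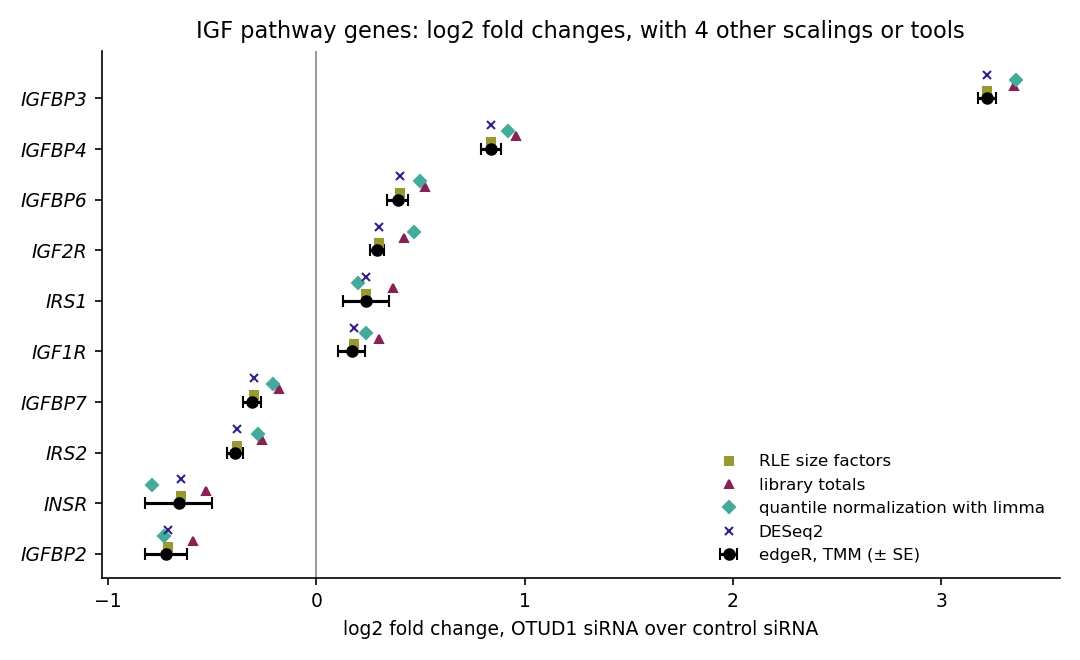
Log2 fold changes of the 10 genes with their SE (black, edgeR with TMM), and the values with 3 other scalings and with DESeq2. Each gene keeps its sign in all of them, and scaling by library totals moves every gene to the right.

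The direction of each of the 10 genes was the same in all settings tried. Scaling by library totals in place of TMM raised the median log2 fold change of all tested genes from 0.01 to 0.13, and the values of the 10 genes moved with it: IGFBP7 was then at -0.18, IRS2 at -0.26 and IGF1R at 0.3. With that scaling the 15244 genes split into 6189 called higher and 3456 lower, in place of 4460 and 4746.

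Of the other promoter motifs, GGGCGG, the GC box, was found in all 9 members with an entry, and in 45% of all promoters. A member counted if any of its entries held the motif, while the 45% is per entry. TTCNNNGAA, the letters bound by STAT factors, and TGANTCA, those bound by AP-1, were in none of the members' promoters, against 7.66% and 7.71% of all promoters, each searched on both strands. Letters missing from this window say nothing about the factors.

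The 7-mer CAAACAA was searched in the 3′ UTR of each principal transcript because earlier work on these data had looked for it in genes at lower levels. Of 12412 tested genes with a 3′ UTR of at least 50 bases, 14.1% carry it. Of the 10 genes, IGF2R alone does, with 2 copies in 6420 bases beginning at bases 789 and 2836 of the UTR, shown here with the 7-mer in capitals.
IGF2R, first site: ctggtgaattCAAACAAcctgcccaaa
IGF2R, second site: ggcattcctaCAAACAAggaccttcac

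None of IGFBP2, IGFBP7, INSR and IRS2, the members at lower levels, carries CAAACAA. The overlapping 7-mer AAACAAA occurs in 6 of the 10, namely IGFBP7, IGF1R, IGF2R, INSR, IRS1 and IRS2, and in 29.9% of the genes searched. The UTRs searched ran from 173 bases in IGFBP6 to 7088 in IGF1R, against a median of 1119.5 bases over all genes searched. A longer UTR offers more places for a match. Of the 6 genes with AAACAAA, IGF1R, IGF2R, IRS1 and IRS2 had UTRs longer than this median, and IGFBP7 and INSR shorter ones. For INSR only the 429 bases of the principal transcript were covered. The sequence of the siRNA was not used here, and whether it has a part in any of these values was not tested.

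The gene profiles closest to that of IGFBP3 were sought among 11036 genes with a mean of at least 5 CPM, by the root mean square difference of log2 CPM, centred on each gene's mean, over the 6 libraries. The nearest were the long non-coding RNA LINC02577 (difference 0.31 on the log2 scale, from 3.24 to 20.8 CPM), the keratin-associated protein gene KRTAP2-3 (0.38, from 0.807 to 10.8 CPM), the scavenger receptor gene MSR1 (0.46, from 1.76 to 9.48 CPM) and the long non-coding RNA AC090114.2 (0.47, from 3.25 to 16.3 CPM). All 4 were far less abundant than IGFBP3, and KRTAP2-3 has close relatives with which reads may be shared. For IGFBP2, the member with the most negative log2 fold change, the nearest were NEURL3 (0.014), ZNF367 (0.035), MED15 (0.044) and ALDH2 (0.048). With 2 groups of 3 libraries, such closeness mostly means a similar fold change. The likeness was looser for IGFBP3 than for IGFBP2. The 4 genes nearest to IGFBP3 had log2 fold changes from 2.32 to 3.71, against its own 3.22.

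Beyond the 10 genes, 86 genes of the pathway were listed in 7 groups by role, and 72 had enough counts to be tested. Of these, 16 rose and 34 fell (edgeR, adjusted p under 0.05) and 22 did not pass, with a median log2 fold change of -0.11. Of all tested genes, 29.3% were called higher and 31.1% lower. Scaled by library totals, 25 of the 72 were called higher and 26 lower. No test compared the lists with other genes. The lists were chosen with earlier results of these data known, so nothing is read from their shares here or below.

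Ligand mRNA was scarce. IGF1 had no count in control libraries and 1 count after OTUD1 siRNA, and INS, the insulin gene, had none. IGF2 had 6, 6 and 18 counts in control replicates 1 to 3 and 28, 25 and 14 counts after OTUD1 siRNA. The groups overlapped, and with a log2 fold change of 0.91 and an SE of 0.41 the gene did not pass (edgeR adjusted p = 0.0577); it passed as higher with library totals (1.04). From summed counts scaled by TMM-adjusted library sizes the ratio was 1.91 with a 95% exact binomial interval of 1.22 to 3.04, which covers counting error only. The symbol IGF2 stands on 2 rows of the table, the other of which is 0 throughout, and the antisense gene IGF2-AS had 40 and 65 counts, so the IGF2 value is uncertain.

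Of 7 tested genes for IGFBP proteases and their inhibitors, 3 were called lower, against 31.1% of all tested genes, and none higher, with a median log2 fold change of -0.24. With library totals the counts were 3 and 1. STC1, which encodes an inhibitor of the IGFBP4 protease PAPPA, was at 11.8, 11.9 and 11.1 CPM in control replicates 1 to 3 and at 4.38, 3.97 and 5.17 CPM after OTUD1 siRNA, a log2 fold change of -1.37 (SE 0.13, adjusted p = 1.73e-10). The serine protease gene HTRA1 fell from 9.21 ± 0.773 to 6.43 ± 1.08 CPM (log2 fold change -0.51, adjusted p = 0.00137). ADAM9, a membrane metalloprotease gene, had a log2 fold change of -0.24 (adjusted p = 5.2e-08), which was 0 after quantile normalization. PAPPA itself was at 15.4 ± 1.25 and 16.6 ± 1.34 CPM and did not pass (adjusted p = 0.292), nor did its relative PAPPA2 (0.451) or the inhibitor gene STC2 (0.147).

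Of 9 tested genes for relatives of the receptors, their maturation and partners of IGFBP3, 4 rose and 3 fell, with a median of 0.1. The shares of all tested genes were 29.3% and 31.1%. With library totals, 6 of the 9 rose and 2 fell. TMEM219, which encodes a cell-surface receptor for IGFBP3, rose from 87.3 ± 1.5 to 122 ± 1.56 CPM (log2 fold change 0.49, SE 0.041, adjusted p = 1.81e-11). FURIN, a protease that cleaves the precursors of IGF1R and INSR, rose from 60.8 ± 3.36 to 90.7 ± 3.94 CPM (0.58, adjusted p = 4.17e-11). The genes of the adaptors that sort mannose 6-phosphate receptors at the Golgi split, with GGA1 higher (0.58, adjusted p = 6.61e-09), GGA2 lower (-0.74, adjusted p = 2.09e-14) and GGA3 not passing (0.04, adjusted p = 0.542). CAV1, which encodes the caveolar protein caveolin-1, fell from 2183.9 ± 83 to 1261.2 ± 13.9 CPM (-0.79, adjusted p = 2.87e-20). LRP1, a large endocytic receptor reported to bind IGFBP3, had a log2 fold change of -0.26 (adjusted p = 0.00159) and lost its call with library totals (-0.13, adjusted p = 0.0959).

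Of 18 tested adaptors and inhibitors close to the receptors, 12 were called lower and 4 higher, with a median of -0.29, against 31.1% and 29.3% of all tested genes. With library totals, 9 were called lower and 6 higher, with a median of -0.16. PTPN1, the phosphatase that dephosphorylates the insulin receptor, was at 75.6, 71.4 and 74.2 CPM in control replicates 1 to 3 and at 33.5, 33.2 and 33.8 CPM after OTUD1 siRNA (log2 fold change -1.14, SE 0.053, adjusted p = 4.19e-17). The docking protein gene GAB1 fell from 37.7 ± 0.784 to 19.2 ± 1.21 CPM (-0.98, adjusted p = 5.99e-13), and the ubiquitin ligase gene NEDD4 from 407 ± 13.3 to 231 ± 5.88 CPM (-0.82, adjusted p = 1.95e-18). GRB10, whose product binds and inhibits both IGF1R and INSR, rose from 101 ± 2.85 to 153 ± 3.25 CPM (0.59, adjusted p = 1.29e-13). SH2B1, an adaptor that promotes insulin signalling, had a log2 fold change of 0.74 (adjusted p = 9.29e-11), and the phosphatase gene PTPN11 one of 0.27 (adjusted p = 1.25e-08). IRS4, the third substrate gene listed, had no count.

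Of 24 tested PI3K, AKT and mTOR genes, 5 rose and 11 fell, with a median of -0.13. The shares of all tested genes were 29.3% and 31.1%. With library totals, 7 rose and 7 fell, with a median of 0. AKT1 rose from 122 ± 7.43 to 179 ± 2.94 CPM (log2 fold change 0.55, adjusted p = 1.55e-12), and AKT2 did not pass (-0.05, adjusted p = 0.246). RPS6KB1, the gene of the S6 kinase that phosphorylates IRS1, fell from 53.6 ± 1.45 to 24.9 ± 1.22 CPM (-1.1, adjusted p = 2.05e-15). PDPK1, the kinase that activates AKT, had a log2 fold change of -0.63 (adjusted p = 5.57e-08), and RHEB, the GTPase that activates mTOR, one of -0.45 (adjusted p = 1.07e-12).

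FOXO factors and FOXO target genes gave 3 higher and 5 lower of 13 tested, against 29.3% and 31.1% of all tested genes. The median was -0.07, or 0.06 with library totals, where 4 were higher and 5 lower. FOXO4 was 1.03 higher on the log2 scale (SE 0.31, adjusted p = 0.00511), with 44 counts in the control group and 106 in the OTUD1 siRNA group, and SESN1, a stress-induced inhibitor of mTOR signalling, was 0.64 higher (adjusted p = 1.51e-10). FOXO3 passed narrowly (0.15, adjusted p = 0.0352). It lost its call without a filter (adjusted p = 0.0765), with DESeq2 (0.0653), and when a library was left out, at 0.11 for control replicate 1, 0.066 for control replicate 3, 0.0845 for OTUD1 siRNA replicate 1 and 0.176 for replicate 2 of that group. GADD45A, a growth arrest gene, fell from 453 ± 28 to 271 ± 3.14 CPM (-0.74, adjusted p = 9.78e-17), CDKN1B, which encodes the cell-cycle inhibitor p27, by 0.43 on the log2 scale (adjusted p = 1.42e-09) and CITED2 by 0.42 (adjusted p = 3.74e-10).

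**Figure D5:**
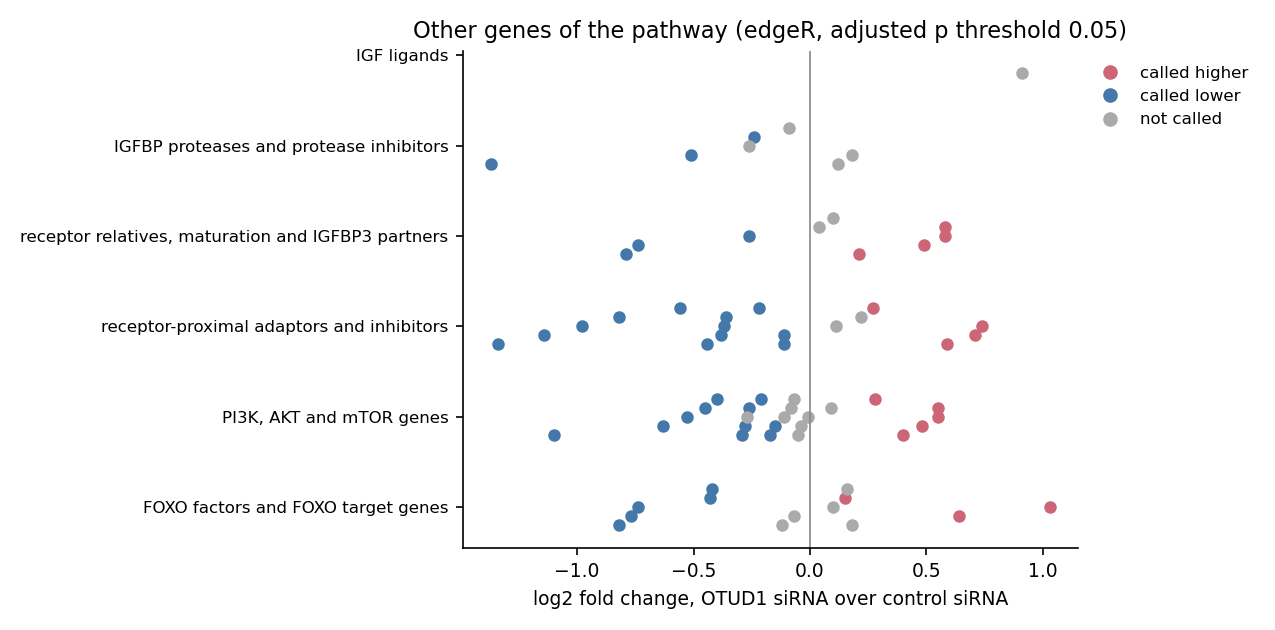
Log2 fold changes of the 72 other pathway genes with enough counts, 1 point per gene, by group and coloured by the edgeR call. In the adaptor and inhibitor group 12 of 18 points are called lower and 4 higher, and in the PI3K, AKT and mTOR group 11 and 5 of 24. The shares of all tested genes are 31.1% lower and 29.3% higher.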

How the data were processed

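RNA of 6 ACHN libraries was sequenced after Trizol extraction and preparation with a strand-keeping kit, per the labels' protocols. The deposited table gives 1 whole-number count per row and library, with rows named by gene symbol, although its name speaks of FPKM, and was treated as raw counts. The submitters' processing notes name hg38. For the aligner, counter, annotation and strand setting, nothing is given in the sources used here. GENCODE 29 gave coordinates, exon lengths and 3′ UTRs, and RefSeq (GRCh38.p14) gave promoters. The members and lists were chosen with earlier results of these data known.

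Low genes were removed with filterByExpr (minimum count 10 in 3 libraries, minimum total 15). The rest were scaled by TMM and fitted over all 15244 with edgeR 4.0.16 (glmQLFit, glmQLFTest, two-sided, Benjamini-Hochberg adjusted, threshold 0.05) in R 4.3.3. Each SE is the log2 fold change over the square root of F. The common biological coefficient of variation was 3.78%. The fit was tested on simulated data. Named beside the 10 members were OTUD1, genes used as markers, and for each list up to 3 called genes in each direction with the smallest adjusted p whose groups did not overlap; others were named for their role, after their values were seen. Some genes that this rule names are not reported here. Lists are described by counts and medians. No 2 libraries of a group agreed within sampling noise, with a mean chi-square of 2.05 to 3.74 per gene. Alternatives covered filters, scalings (RLE, library totals, quantile with limma 3.58.1), DESeq2 1.42.0, the replicate block, each library left out, and gene length.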

Additional observations from a re-analysis of the deposited data

How the results depend on the processing

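Over the 13 alternatives of the fit, 4 to 6 of the 10 genes were called higher and 3 or 4 lower; INSR was not tested with a minimum mean of 5 CPM. The median log2 fold change of the 10 genes was 0.2, against 0.33 with library totals and 0.29 with a minimum mean of 5 CPM. The pathway genes called higher numbered 16, against 25 with library totals. Of the single-gene values for the members, 110 moved by less than the spread between replicates, 19 moved by more and none changed sign. The named pathway genes kept direction and call in 342 of 350 single-gene values over these alternatives. The other 8 lost their call, most of them for FOXO3 and the rest for ADAM9 and LRP1. The log2 fold change of OTUD1 ran from -1.5 to -1.81 with a library left out.

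Replicate numbers are shared by the groups, and the deviations of same-numbered libraries had correlations of -0.0229, 0.0178 and -0.0182. Counting noise of all tested genes enters these correlations, so they cannot tell whether the libraries were paired. With the replicate block, 4484 genes were called higher and 4791 lower, 5 and 4 of the members, 17 and 34 of the pathway genes, and OTUD1 had a log2 fold change of -1.69.

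Low counts limit INSR, IGF2 and the untested genes.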
